A study of Arabidopsis thaliana with 30 samples.

Results

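Signals of 6 Arabidopsis thaliana genes that act when a cell divides were followed through 8 groups of root tissue, in a series on regrowth of the root after its tip is cut away. They are the Aurora kinase genes AUR1 (AT4G32830) and AUR2 (AT2G25880), the spindle checkpoint genes BUBR1 (AT2G33560) and BUB3.1 (AT3G19590), and the HMG-box genes 3xHMG-box1 (AT4G11080) and 3xHMG-box2 (AT4G23800). They were picked by name, and each has 1 probe set among the 22746 on the array. No ID among these probe sets carries the suffix that marks a probe set shared between similar genes. Cross-hybridisation between close relatives such as AUR1 and AUR2 was not tested.

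All plants were wild type of the Col-0 background, and no transgene is named in the labels. The groups were a section cut at 270 to 340 along the root and harvested at once (3 arrays), the tip of the root at 8 days post germination (dpg; 3 arrays), the tip at 4 dpg (4 arrays), and the stump left after removal of the tip at 4 dpg, taken at 0, 5, 13 and 22 h (4, 4, 4 and 5 arrays). The last was a stump labelled 8 dpg (3 arrays), whose labels disagree: 1 says that it was recut at 0 h, another that it was taken 192 h after the first cut. A tip was the distal 130 µm and a stump the next 70 µm by the treatment protocol, where the titles print mm, and the design text calls the section wounded tissue that does not regenerate. The section has no age in the labels and was not matched in time to the stumps. Each array came from at least 25 pooled pieces. Whether replicates were sown separately is not in the labels, so each p-value speaks only of the scatter among the arrays at hand, which may be technical.

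Aurora kinases phosphorylate proteins of the chromosomes, spindle and cell plate, and in Arabidopsis AUR1 and AUR2 help to set the plane of divisions. The spindle checkpoint delays anaphase until kinetochores are attached to microtubules. BUBR1 and BUB3 proteins belong to it, and BUB3.1 also acts at the phragmoplast, the array of microtubules that builds the plant cell plate. The 3xHMG-box proteins carry repeated HMG boxes that bind DNA and associate with condensed chromosomes in dividing cells. In a root, divisions are concentrated in the meristem near the tip, and cells farther up stop dividing, elongate and in part replicate their DNA without mitosis.

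The 2% trimmed mean signal was between 246.5 and 248.6 on every array, while median signals ran from 66.1 to 141.8. The section arrays had the lowest medians, at 73.5, 70.7 and 66.1. The 4 medians above 120 were those of stump 0 h arrays 1 and 2, tip 4 dpg array 1 and stump 22 h array 1. For comparisons that use these arrays, selected differences are given without them as well, but not every difference. Within-group correlations of log2 values over all probe sets ran from 0.793, in the stump at 0 h, to 0.976, in the tip at 8 dpg. Of the marker genes listed for the root stem cell niche 2 of 7 had a named probe set (BBM and JKD), for differentiated root 2 of 8 (EXPA7 and EXPA18) and for the root cap 0 of 4, so the labelled tissues could be checked only in part. BBM, a transcription factor gene of the stem cell niche, had signals of 5.8 to 12.5 in the section and 6.6 to 25.5 in the stump at 0 h, against 185 to 264 in the tip at 8 dpg and 57.3 to 315 in the tip at 4 dpg.

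The levels of the Aurora genes are described first. AUR1 signals were 214, 224 and 245 in the section, 1226, 1309 and 1263 in the tip at 8 dpg and 897, 607, 1326 and 1158 in the tip at 4 dpg. In the stump they were 1183, 535, 523 and 589 at 0 h, 563, 488, 314 and 297 at 5 h, 525, 985, 1155 and 652 at 13 h and 1566, 501, 895, 883 and 1334 at 22 h. The stump labelled 8 dpg gave 1281, 1266 and 1585. By mean log2 value the section was lowest, below all other arrays, and the stump at 5 h next, and no other pair of neighbours in that order was free of overlap. Array 1 of the stump at 0 h stood apart from the other 3, which lay within 523 to 589.

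AUR2 had signals of 42.6, 80.2 and 65.2 in the section, 509, 468 and 438 in the tip at 8 dpg and 217, 291, 271 and 445 in the tip at 4 dpg. Its stump signals were 401, 178, 308 and 271 at 0 h, 126, 79.6, 162 and 168 at 5 h, 236, 398, 324 and 427 at 13 h and 578, 323, 438, 448 and 518 at 22 h. In the stump labelled 8 dpg they were 569, 483 and 496. All 5 h arrays of AUR2 lay below all 0 h arrays and all 13 h arrays, whereas the lowest 5 h array, 79.6, fell just under the highest section array, 80.2. The order of group means was the section, then the stump at 5 h, at 0 h, the tip at 4 dpg, the stump at 13 h and at 22 h, the tip at 8 dpg and the stump labelled 8 dpg, and the step from 5 h to 0 h was the only one between neighbours without overlap.

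BUBR1, a checkpoint protein related to the kinase BUB1, had 39.4, 42.9 and 34 in the section, 247.2, 298 and 297 in the tip at 8 dpg and 187, 228, 203 and 186 in the tip at 4 dpg. Stump signals were 29.3, 17.9, 152 and 194 at 0 h, 133, 62.4, 140.1 and 116 at 5 h, 135, 162, 158 and 223 at 13 h and 101, 50.7, 121, 161 and 226 at 22 h. The stump labelled 8 dpg had 351, 300.4 and 338, above every other array of the series. The 0 h stump fell into a low pair, arrays 1 and 2, which were below every section array, and a high pair, arrays 3 and 4. Those low arrays are also the ones with median signals of 141.8 and 121.3, and the part of that in their low BUBR1 was not tested.

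BUB3.1, a WD40 protein of the same checkpoint, gave 224, 217 and 191 in the section, 1049, 1176 and 1181 in the tip at 8 dpg and 267, 556, 535 and 949.8 in the tip at 4 dpg. In the stump it had 269.8, 126, 527 and 729.9 at 0 h, 593, 339, 529.9 and 368 at 5 h, 509, 659.9, 558 and 653 at 13 h and 361, 445, 542, 440.1 and 852 at 22 h. Signals in the stump labelled 8 dpg were 1117, 1038 and 1202. Arrays 1 and 2 of the stump at 0 h were again the lower pair. Both groups at 8 dpg lay above every array of the other 6 groups for BUB3.1, and overlapped each other. As with BUBR1, the section, the 0 h stump and the 5 h stump were the 3 lowest groups by mean.

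3xHMG-box1 had 66.3, 72.2 and 78.3 in the section, 412, 404 and 467 in the tip at 8 dpg and 712, 383, 471 and 382 in the tip at 4 dpg. Its stump signals were 436, 390.4, 345 and 289 at 0 h, 266, 110.0, 350.2 and 322 at 5 h, 180.0, 289, 287 and 188 at 13 h and 406, 209, 339, 284 and 452 at 22 h, with 444, 514 and 454 in the stump labelled 8 dpg. All section arrays were below all other arrays, and the remaining groups overlapped their neighbours. The 13 h stump, not the 5 h stump, had the lowest mean outside the section for this gene.

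3xHMG-box2 had 159, 148 and 114 in the section, 1375, 1395 and 1253 in the tip at 8 dpg and 1674, 1885, 758 and 1222 in the tip at 4 dpg. In the stump it gave 2337, 442, 676 and 816 at 0 h, 374, 299, 546 and 556 at 5 h, 531, 780.4, 844 and 968 at 13 h and 2074, 821, 696, 798 and 909.7 at 22 h. The stump labelled 8 dpg gave 1208, 1043 and 1358. The section was again below all other arrays and the 5 h stump was the next lowest group. Array 1 at 0 h and array 1 at 22 h, at 2337 and 2074, were the 2 highest of all 30 arrays, and both are among the 4 arrays of high median.

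**Figure D1:**
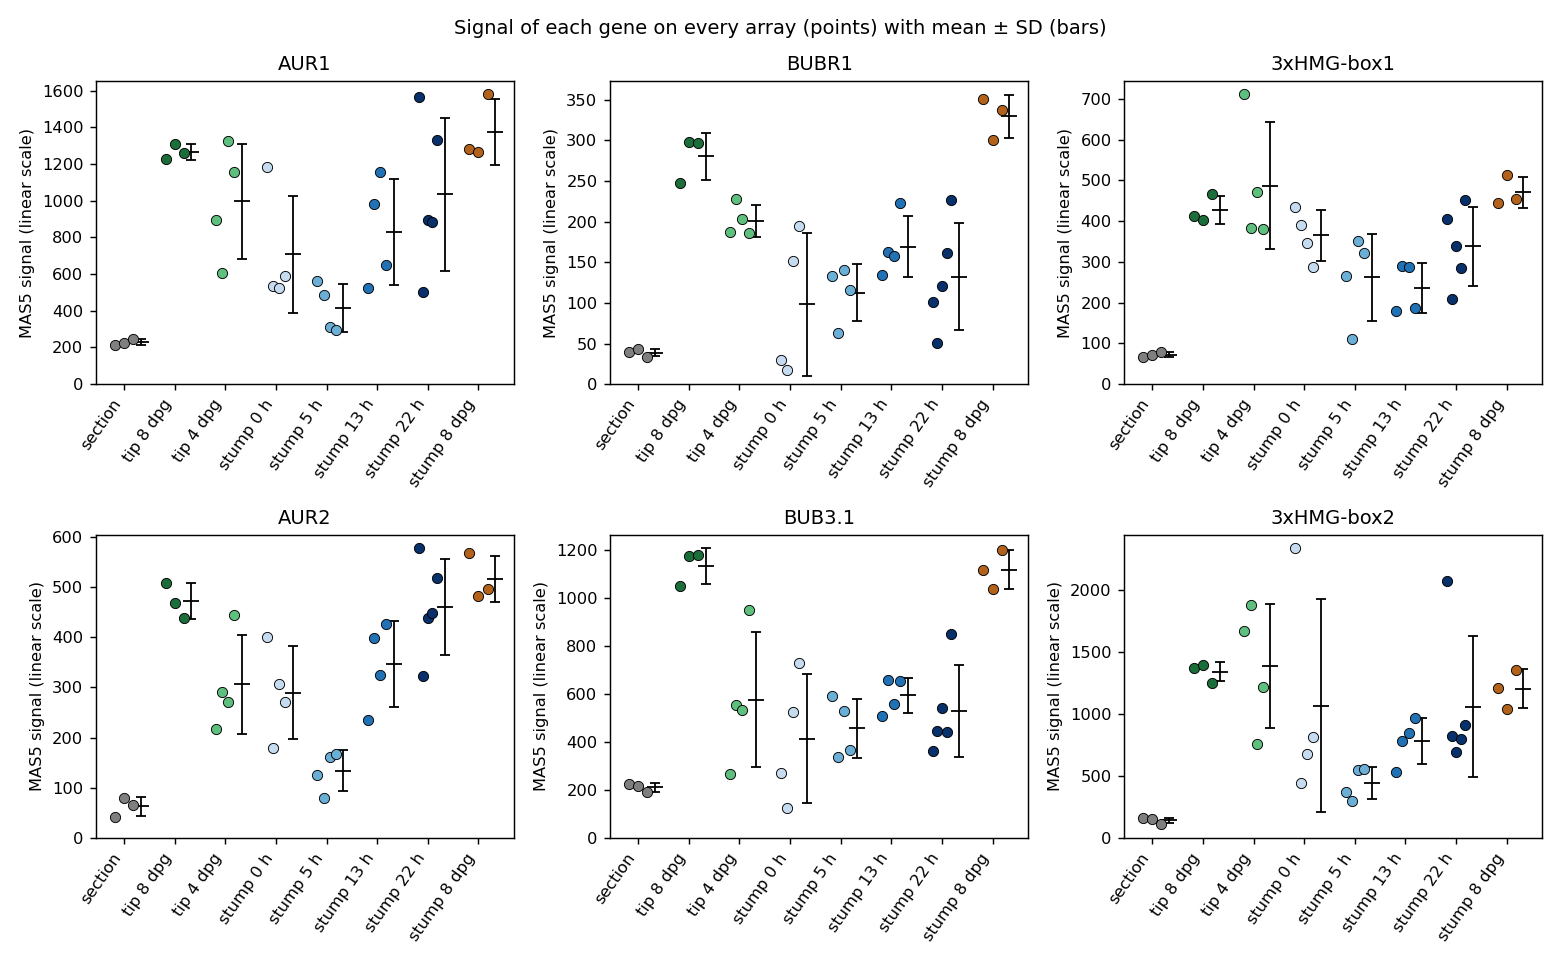
MAS5 signal (linear axis from 0) of AUR1, AUR2, BUBR1, BUB3.1, 3xHMG-box1 and 3xHMG-box2 on each of the 30 arrays, by group, with the mean ± SD of the group as a bar beside the points. The 3 section arrays are low for every gene, the 5 h stump is low for AUR1, AUR2 and 3xHMG-box2, and BUBR1 and BUB3.1 split the 0 h stump into a low and a high pair.

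Differences below are on the log2(signal + 32) scale with their standard error, as the first group minus the second, from limma fitted to all 30 arrays and all probe sets. A gene is called changed at an adjusted p under 0.05 and a difference of at least 1. Counts at an unadjusted p under 0.05 are descriptions, and no share of all probe sets at that threshold is given. The added 32 makes differences of dim genes smaller.

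The section was compared with the tip at 8 dpg to set tissue far from the tip against the intact tip. All 6 genes fell in the section, where 9.93% of all probe sets fell. The differences were -2.32 ± 0.34 (adjusted p = 3.61e-06) for AUR1 and -2.43 ± 0.29 (adjusted p = 1.08e-07) for AUR2. For BUBR1 it was -2.14 ± 0.41 (adjusted p = 0.000191) and for BUB3.1 -2.27 ± 0.38 (adjusted p = 3.08e-05). The HMG-box genes gave -2.14 ± 0.31 (adjusted p = 2.33e-06) for 3xHMG-box1 and -3.00 ± 0.39 (adjusted p = 6.06e-07), or 8.00-fold lower, for 3xHMG-box2. The median over the 6 genes was -2.29, against -0.05 over all probe sets, and for each gene all section arrays lay below all tip arrays, as for 25.9% of probe sets. All 6 calls held under every alternative run, each array left out included.

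Of the 4 markers with a named probe set 1, BBM, moved along with this difference, at 5.8 to 12.5 in the section and 185 to 264 in the tip at 8 dpg. JKD, a transcription factor gene of the root ground tissue, had 49.3 to 131 in the section and 64.3 to 107 in the tip at 8 dpg, which overlap. The summed signal of BBM and JKD, 2 of the 7 niche markers, was 55.1 to 143 in the section and 249 to 371 in the tip, a gap that BBM shows and JKD does not. The summed signal of EXPA7 and EXPA18, 2 of the 8 markers of differentiated root, was 55.2 to 92.4 in the section and 31.2 to 102 in the tip at 8 dpg, so it did not separate these groups. No marker was listed at 0. The part of cell type composition in the low section signals was not tested, and in bulk tissue fewer dividing cells and less RNA per cell cannot be told apart.

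Against the fresh stump at 0 h 4 of the 6 genes fell in the section, where 6.16% of all probe sets fell. The median difference over all probe sets was -0.23. The 4 genes were AUR1 at -1.43 ± 0.32 (adjusted p = 0.00292), AUR2 at -1.74 ± 0.27 (adjusted p = 7.11e-05), 3xHMG-box1 at -1.92 ± 0.29 (adjusted p = 4e-05) and 3xHMG-box2 at -2.40 ± 0.37 (adjusted p = 5.94e-05). BUBR1 differed by -0.59 ± 0.39 (adjusted p = 0.32) and BUB3.1 by -0.64 ± 0.36 (adjusted p = 0.235), with overlapping arrays. Without the 4 arrays of high median, which include 0 h arrays 1 and 2, BUBR1 differed by -1.53 (adjusted p = 0.00286) and BUB3.1 by -1.43 (adjusted p = 0.000477), so both passed. Leaving out only 0 h array 2 also brought BUB3.1 past the thresholds, at -1.06 (adjusted p = 0.0295).

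The first hours after the cut were examined in the stump. From 0 to 5 h 0 of the 6 genes passed both thresholds, against 2.63% of all probe sets in either direction. AUR2 was the nearest, at 134 ± 40.7 at 5 h and 289.6 ± 92.1 at 0 h (SD, n = 4 each), a difference of -0.95 ± 0.25 (adjusted p = 0.03), which passed the p threshold and missed the size threshold. All 5 h arrays of AUR2 lay below all 0 h arrays, as for 3.98% of probe sets. 3xHMG-box2 differed by -0.97 ± 0.34 (adjusted p = 0.111), AUR1 by -0.69 ± 0.30 (adjusted p = 0.192) and 3xHMG-box1 by -0.52 ± 0.26 (adjusted p = 0.281), and none of these passed. Over all probe sets the median difference was -0.15. The outcome depended on single arrays. AUR2 passed both thresholds without 0 h array 2 (-1.13, adjusted p = 0.0109), 5 h array 3 (-1.03, adjusted p = 0.0413) or 5 h array 4 (-1.05, adjusted p = 0.035), and 3xHMG-box2 passed without 0 h array 2 (-1.28, adjusted p = 0.0376). Leaving out other arrays made the same differences smaller. Without 0 h array 1, the highest of its group for AUR1 and 3xHMG-box2, the difference of 3xHMG-box2 shrank to -0.51 (adjusted p = 0.47), that of AUR1 to -0.42 (adjusted p = 0.555) and that of AUR2 to -0.79 (adjusted p = 0.124). Without 5 h array 2, the lowest of its group for 3xHMG-box1, that gene was at -0.20 (adjusted p = 0.715) and AUR2 at -0.77 (adjusted p = 0.114). AUR2 missed the p threshold as well without 5 h array 1 (adjusted p = 0.0591), with array weights (adjusted p = 0.0758), after quantile normalization (adjusted p = 0.108) or median centring (adjusted p = 0.164) and in a fit of only these 2 groups (adjusted p = 0.312). Without the 4 arrays of high median AUR2 was at -0.99 (adjusted p = 0.0304), 3xHMG-box2 at -0.74 (adjusted p = 0.139) and AUR1 at -0.44 (adjusted p = 0.572).

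BUBR1 and BUB3.1 had positive differences from 0 to 5 h in the fit of all arrays, 0.41 ± 0.36 (adjusted p = 0.559) and 0.34 ± 0.33 (adjusted p = 0.604). Without the 4 arrays of high median the same differences were -0.53 for BUBR1 and -0.45 for BUB3.1, and the sign for BUB3.1 also turned without 0 h array 2 alone, at -0.079. The direction of these genes over the first 5 h is therefore not settled in these data. The 95% intervals were -0.32 to 1.14 for BUBR1 and -0.33 to 1.01 for BUB3.1. Whether the early difference of the checkpoint genes departs from that of the Aurora and HMG-box genes was not tested.

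Against the tip at 4 dpg 3 of the 6 genes fell in the 5 h stump, where 2.33% of all probe sets fell. 3xHMG-box2 was at 444 ± 127.6 in the 5 h stump and 1385 ± 501 in the tip (SD, n = 4 each), a difference of -1.54 ± 0.34 (adjusted p = 0.00406). AUR1 differed by -1.19 ± 0.30 (adjusted p = 0.0102) and AUR2 by -1.02 ± 0.25 (adjusted p = 0.00956). All 3 had every stump array below every tip array. 3xHMG-box1, at -0.87 ± 0.26 (adjusted p = 0.0411), passed by p but not by size, and BUBR1, at -0.72 ± 0.36 (adjusted p = 0.263), did not pass, although their arrays did not overlap either. Without 5 h array 3, 3xHMG-box1 passed as well (-1.03, adjusted p = 0.0282). Without the 4 arrays of high median 3xHMG-box1 was at -0.68 (adjusted p = 0.0954) and missed both thresholds, while the 3 calls held. In all, 5 of the 6 genes had every stump array below every tip array, against 6.46% of probe sets. The call for AUR1 was lost without tip array 3 (adjusted p = 0.0566) or 5 h array 4 (adjusted p = 0.0506), and that for AUR2 without tip array 4 (adjusted p = 0.052) or 5 h array 2 (adjusted p = 0.0518). AUR2 also lost its call in 4 of 11 other alternatives, which were quantile normalization (adjusted p = 0.0612), median centring (adjusted p = 0.0658), a fit of only these 2 groups (adjusted p = 0.0655) and a larger pseudocount (-0.72, under the size threshold).

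From 5 to 13 h AUR2 rose, 1 of the 6 genes, where 0.229% of all probe sets rose. Its mean was 346 ± 85.7 at 13 h and 134 ± 40.7 at 5 h (SD, n = 4 each), a difference of 1.20 ± 0.25 (adjusted p = 0.017), with all 13 h arrays above all 5 h arrays. AUR1, at 0.93 ± 0.30 (adjusted p = 0.266), and 3xHMG-box2, at 0.78 ± 0.34 (adjusted p = 0.598), did not pass. The call for AUR2 was lost without 5 h array 2 (adjusted p = 0.106) and without 13 h array 2, 3 or 4 (adjusted p = 0.0914, 0.0503 and 0.0895). It was also lost after quantile normalization (adjusted p = 0.0512), after median centring (adjusted p = 0.0683) and with a larger pseudocount (0.85, under the size threshold).

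From 5 to 22 h both Aurora genes rose, 2 of the 6, where 1.17% of all probe sets rose. AUR2 was at 461 ± 95.9 at 22 h (SD, n = 5) and 134 ± 40.7 at 5 h (SD, n = 4), a difference of 1.59 ± 0.24 (adjusted p = 0.000153), or 3.00-fold, and held this call under every alternative and with each array left out. AUR1 differed by 1.20 ± 0.28 (adjusted p = 0.0173), with 22 h array 2, at 501, below the highest 5 h array, at 563. That call was lost without 5 h array 3 (adjusted p = 0.0792), 5 h array 4 (adjusted p = 0.0843) or 22 h array 1 (adjusted p = 0.052), after median centring (adjusted p = 0.0749) and in a fit of only these 2 groups (adjusted p = 0.0839). 3xHMG-box2 had all 22 h arrays above all 5 h arrays and differed by 1.12 ± 0.32 (adjusted p = 0.0715), which did not pass, although it did with array weights (1.04, adjusted p = 0.0297). Without the 4 arrays of high median 3xHMG-box2 was at 0.85 (adjusted p = 0.0255), which passed by p but not by size. The summed signal of EXPA7 and EXPA18 was 120 to 1306 at 22 h and 22.4 to 65.1 at 5 h, and its part in the Aurora differences was not tested.

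At 22 h 0 of the 6 genes differed by these thresholds from the stump at 0 h or from the tip at 4 dpg, where 1.47% and 3.43% of all probe sets did. At an unadjusted p under 0.05 there was 1 gene in each comparison. Against the 0 h stump the largest difference was that of AUR2, 0.64 ± 0.24 (adjusted p = 0.222), with a 95% interval of 0.16 to 1.12. Against the tip at 4 dpg the differences ran from -0.60 ± 0.34 for BUBR1, with an interval of -1.29 to 0.09, to 0.56 ± 0.24 for AUR2, with an interval of 0.08 to 1.05. These intervals include differences of up to 1.29 below and 1.05 above the tip, so the data do not show that the levels were equal. Without the 4 arrays of high median AUR2 was at 0.51 (adjusted p = 0.361) against the 0 h stump. Against the tip AUR2 was then at 0.35 (adjusted p = 0.412). Between 13 and 0 h 0 of the 6 genes passed, against 1.98% of probe sets, with 3 genes at an unadjusted p under 0.05. Their directions differed, with BUBR1 and BUB3.1 (0.72 ± 0.33, adjusted p = 0.259) higher at 13 h and 3xHMG-box1 (-0.58 ± 0.26, adjusted p = 0.257) lower. One of them, BUBR1 (0.91 ± 0.36, adjusted p = 0.186), passed when 0 h array 4 was left out (1.27, adjusted p = 0.035), and differed by -0.04 without the 4 arrays of high median.

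**Figure D2:**
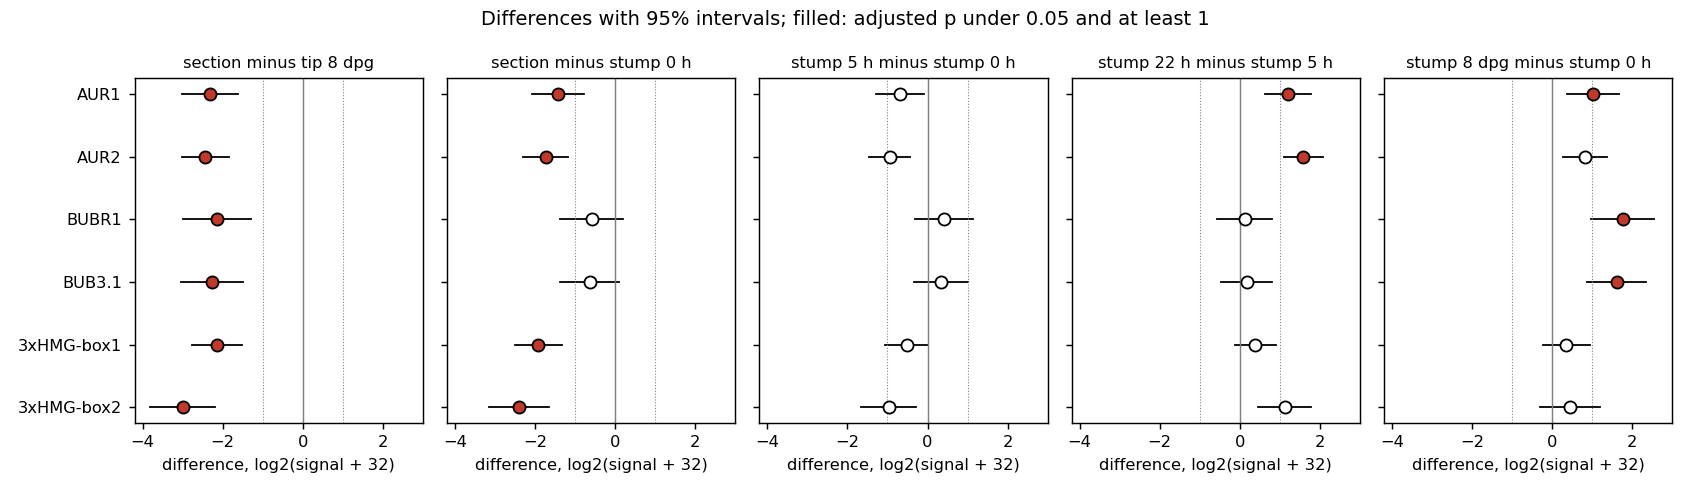
Differences between groups on the log2(signal + 32) scale for the 6 genes in 5 comparisons, with 95% intervals as lines. Filled points passed an adjusted p under 0.05 and a difference of at least 1 (dotted lines): all 6 in the section against the tip at 8 dpg, 4 in the section against the 0 h stump, 0 from 0 to 5 h, AUR1 and AUR2 from 5 to 22 h, and AUR1, BUBR1 and BUB3.1 in the stump labelled 8 dpg against the 0 h stump.

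The stumps were then set against the section. At 5 h 2 of the 6 genes were called higher than in the section, where 6.38% of all probe sets were. They were 3xHMG-box1 at 1.40 ± 0.29 (adjusted p = 0.00062) and 3xHMG-box2 at 1.43 ± 0.37 (adjusted p = 0.0061). AUR2, at 0.79 ± 0.27 (adjusted p = 0.043), missed the size threshold, and AUR1 (0.74 ± 0.32), BUBR1 (1.00 ± 0.39) and BUB3.1 (0.98 ± 0.36) missed both, with adjusted p = 0.13, 0.0824 and 0.0609. For 5 of the 6, AUR2 being the exception, all 5 h arrays lay above all section arrays, as for 15.1% of probe sets. BUBR1 passed when 5 h array 2 was left out (1.19, adjusted p = 0.0486). Without 5 h array 1, 3 or 4 AUR2 missed the p threshold as well (adjusted p = 0.0652, 0.119 and 0.125). The same held without section array 1 or 3 (adjusted p = 0.216 and 0.099). It held too after quantile normalization (adjusted p = 0.145) or median centring (adjusted p = 0.195). A larger pseudocount (adjusted p = 0.148), the replicate block (adjusted p = 0.0806) and a fit of only these 2 groups (adjusted p = 0.114) had the same outcome.

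At 22 h all 6 genes were called higher than in the section, where 7.43% of all probe sets were, and for all 6 the arrays did not overlap, as for 13.1% of probe sets. The median difference over all probe sets was 0.20. The differences were 2.55 ± 0.35 (adjusted p = 3.55e-06) for 3xHMG-box2, 2.38 ± 0.26 (adjusted p = 6.63e-08) for AUR2, 1.94 ± 0.30 (adjusted p = 2.36e-05) for AUR1 and 1.79 ± 0.27 (adjusted p = 1.67e-05) for 3xHMG-box1. BUBR1, at 1.11 ± 0.37 (adjusted p = 0.0345), and BUB3.1, at 1.15 ± 0.34 (adjusted p = 0.0175), were the smallest. The BUBR1 call was lost without 22 h array 3, 4 or 5 (adjusted p = 0.0519, 0.0724 and 0.0931) and without section array 1, 2 or 3 (adjusted p = 0.0882, 0.0828 and 0.121). The BUB3.1 call was lost without 22 h array 5 (adjusted p = 0.0541) and without section array 2 or 3 (adjusted p = 0.0549 and 0.0806). Of 11 other alternatives 5 cost the BUBR1 call and 3 the BUB3.1 call. Median centring (adjusted p = 0.259 for BUBR1 and 0.232 for BUB3.1), a larger pseudocount (differences of 0.60 and 0.91) and the replicate block (adjusted p = 0.12 and 0.0742) cost both, and quantile normalization (adjusted p = 0.243) and a fit of only these 2 groups (adjusted p = 0.0778) cost that of BUBR1. The section arrays serve in both of these comparisons.

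The excised tip at 4 dpg and the fresh stump at 0 h are neighbouring pieces of the root. Of the 6 genes 0 were called, where 2.17% of all probe sets were, and 1 had an unadjusted p under 0.05. That gene was BUBR1, at 201 ± 19.8 in the tip and 98.3 ± 88.1 in the stump (SD, n = 4 each), a difference of 1.13 ± 0.36 (adjusted p = 0.0828). Its call turned on the split 0 h stump: it passed without 0 h array 3 (adjusted p = 0.0307) or array 4 (adjusted p = 0.0103), and was at 0.22 (adjusted p = 0.855) without the 4 arrays of high median. All 6 differences were positive, where 46.4% of all probe sets were. Their median was 0.53, against -0.04 over all probe sets, and they ran from 0.08 for AUR2 to that of BUBR1. The 6 differences rest on the same arrays, so they are not separate results. These groups overlapped for all 6 genes.

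The stump labelled 8 dpg was higher than the 0 h stump in 3 of the 6 genes, where 3.64% of all probe sets were. The median difference over all probe sets was -0.17. BUBR1 was at 329.6 ± 26.1 in the stump labelled 8 dpg (SD, n = 3) and 98.3 ± 88.1 at 0 h (SD, n = 4), a difference of 1.76 ± 0.39 (adjusted p = 0.00252). BUB3.1 was at 1119 ± 82 and 413 ± 269 in these groups, a difference of 1.61 ± 0.36 (adjusted p = 0.00294). AUR1 differed by 1.01 ± 0.32 (adjusted p = 0.0445), close to both thresholds. AUR2 at 0.81 ± 0.27 (adjusted p = 0.0576), 3xHMG-box1 at 0.35 ± 0.29 (adjusted p = 0.482) and 3xHMG-box2 at 0.44 ± 0.37 (adjusted p = 0.499) did not pass. All arrays labelled 8 dpg lay above all 0 h arrays in 5 of the 6 genes, 3xHMG-box2 being the exception, against 8.02% of probe sets. Among the tissue markers with a named probe set only BBM was separated between these groups, while JKD, EXPA7 and EXPA18 overlapped. JKD had 22 to 75.1 in the stump labelled 8 dpg and 48.6 to 277 at 0 h. EXPA7 had 8.8 to 71.4 and 62.1 to 154 in these groups, and EXPA18 had 18.2 to 60.8 and 6.1 to 99.6. BBM had 235 to 317 in the stump labelled 8 dpg and 6.6 to 25.5 at 0 h, a difference of 2.61 ± 0.39 (adjusted p = 2.02e-05). SIM, a gene for an inhibitor of cyclin-dependent kinases, had 3.8 to 37.9 in the stump labelled 8 dpg and 334 to 1806 at 0 h, a difference of -4.05 ± 0.54 (adjusted p = 2.72e-06). In the tip at 8 dpg BBM was at 185 to 264 and SIM at 4.4 to 32.6, so on both genes the stump labelled 8 dpg lay near that tip and far from the 0 h stump. The part of tissue composition in the differences of the 6 genes was not tested.

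Both checkpoint calls were lost without 0 h arrays 1 and 2 and the other arrays of high median. Without the 4 arrays of high median the differences were 0.82 for BUBR1 (adjusted p = 0.164) and 0.82 for BUB3.1 (adjusted p = 0.0584), and neither passed, while AUR1 was at 1.26 (adjusted p = 0.0136). The AUR1 call in turn was lost without 0 h array 2, 3 or 4 (adjusted p = 0.122, 0.0775 and 0.0721) and without array 1, 2 or 3 of the stump labelled 8 dpg (adjusted p = 0.0999, 0.103 and 0.177). It was lost too with quantile normalization (adjusted p = 0.126), a constant prior variance in place of the intensity trend (adjusted p = 0.0651), the replicate block (adjusted p = 0.0522) and a larger pseudocount (0.91). AUR2 passed after median centring (1.07, adjusted p = 0.0202). In a fit of only these 2 groups 0 of the 6 genes passed.

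By the label that has it recut at 0 h, the stump labelled 8 dpg differs from the 0 h stump in age, so that comparison too is one between ages. Between the tips at 8 and 4 dpg 0 of the 6 genes passed, against 0.444% of all probe sets, with 2 at an unadjusted p under 0.05. BUB3.1 was at 1135 ± 74.8 in the tip at 8 dpg (SD, n = 3) and 577 ± 281 at 4 dpg (SD, n = 4), with all arrays at 8 dpg above all at 4 dpg, and differed by 1.06 ± 0.36 (adjusted p = 0.276). AUR2 differed by 0.62 ± 0.27 (adjusted p = 0.52). Between the tip at 8 dpg and the stump labelled 8 dpg 0 of the 6 genes and 0 of the 22746 probe sets passed in limma, and 0 of the 6 genes had an unadjusted p under 0.05. Whether the step from stump to tip differs between the ages was tested as an interaction, in which 0 of the 6 genes passed, against 0.189% of all probe sets. BUBR1 was the only 1 of the 6 with an unadjusted p under 0.05 (-1.34 ± 0.55, adjusted p = 0.601). Without the 4 arrays of high median its interaction was -0.43 (adjusted p = 0.924).

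Close relatives were compared with each other in 6 exact permutation tests, two-sided, on the difference between their log2 values on each array. AUR2 minus AUR1 was -1.42 ± 0.76 at 5 h and -1.16 ± 0.37 at 0 h (SD, n = 4 each), a change of -0.26 (exact p = 0.514, adjusted p = 0.635). From 5 to 13 h this difference changed by 0.27 and from 0 to 22 h by 0.12, with the same adjusted p. 3xHMG-box2 minus 3xHMG-box1 was 1.60 ± 0.39 at 13 h and 0.75 ± 0.34 at 5 h (SD, n = 4 each), a change of 0.85 (exact p = 0.0286, adjusted p = 0.171). An exact p of 0.0286 is the smallest that 4 against 4 arrays can give. So unequal change within either pair was not shown after adjustment, nor was equal change.

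Over the 30 arrays the closest pattern to BUBR1, among 6209 probe sets with 1 named gene and a mean above the median, was BUB3.1, and the closest to BUB3.1 was BUBR1, with a Pearson r of 0.896 of log2 values. After group means were subtracted r was 0.751 for this pair. The 0 h stump, with its low pair of arrays, had the largest SD of log2 values, 1.10 for BUBR1 and 1.01 for BUB3.1. In the other groups these SDs were at most 0.615 and 0.703. How far the r of this pair rests on those 0 h arrays was not tested. The 6 pairs within the Aurora and HMG-box genes had r of 0.743 to 0.867, and 0.302 to 0.575 after subtraction of group means. Between a checkpoint gene and an Aurora or HMG-box gene r was 0.49 to 0.695, and -0.132 to 0.463 after subtraction. Arrays share groups and the 4 arrays of high median, so these values are descriptions.

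**Figure D3:**
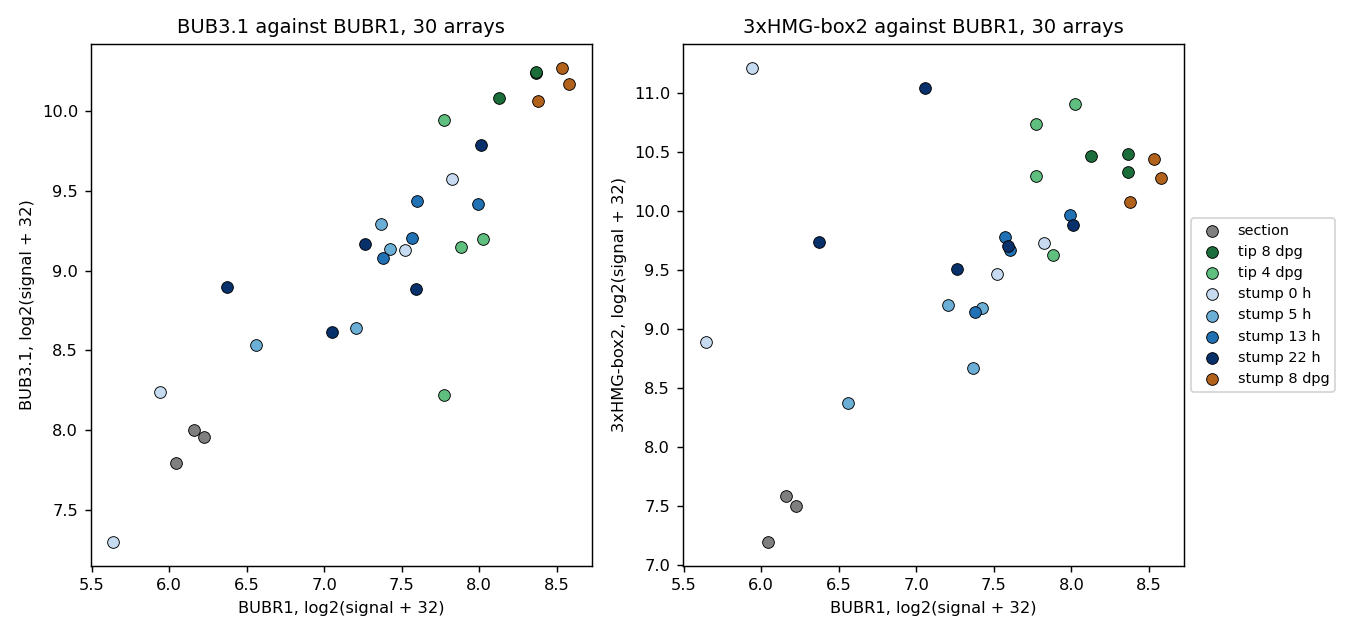
BUB3.1 (left) and 3xHMG-box2 (right) against BUBR1 on the log2(signal + 32) scale, 1 point per array, coloured by group. On the left 0 h stump array 2 is the lowest of all arrays for both genes. Array 1 of that group has BUBR1 below every section array but BUB3.1 above every section array. On the right 0 h stump arrays 1 and 2 have low BUBR1 with 3xHMG-box2 at 2337 and 442.

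AUR2 was closest to AT2G16270 (r = 0.933), then to UBC20 (0.896), a gene for a ubiquitin-conjugating enzyme, AT3G15550 (0.887), AUR1 (0.867) and IQD16 (0.867). AUR1 was closest to AT3G02640 (0.925), AT5G48310 (0.907), AT3G27330 (0.906), AT2G07170 (0.899) and AT3G15550 (0.894), with AUR2 at rank 17. AT2G16270 was also the closest to 3xHMG-box2 (0.904), followed by AT2G07170 (0.898), AT5G05510 (0.890), AT3G01160 (0.885) and AT5G05990 (0.879). For 3xHMG-box1 the 5 nearest were AT1G53460 (0.914), AT5G66820, AT2G18220, AT3G03170 and AT5G20400 (0.877), and 3xHMG-box2 was at rank 22. After BUB3.1, BUBR1 was nearest to AT1G50110 (0.887), AT3G15590, AT4G36580 and AT5G48940 (0.868). After BUBR1, BUB3.1 was nearest to AT2G37500 (0.885), AT5G66530, AT4G28450 and AT3G23620 (0.870).

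Of 111 further cell division genes on 9 lists, 16 had a named probe set, and these had 17 probe sets. Of 18 mitotic cyclin and B-type CDK genes 0 were named here. In the section against the tip at 8 dpg 6 of the 17 probe sets fell and 1 rose, where 9.93% and 7.33% of all probe sets did, and their median was -0.99. AUR3, the third Aurora kinase gene, fell, with 118 ± 20.0 in the section and 493.1 ± 38.2 in the tip at 8 dpg, a difference of -1.81 ± 0.27 (adjusted p = 5.74e-06). AT2G28620 differed by -2.28 ± 0.42 (adjusted p = 9.76e-05), AT5G05510 by -1.55 ± 0.29 (adjusted p = 0.000139), AT4G39630 by -1.62 ± 0.36 (adjusted p = 0.00111), FU, a kinase gene of cytokinesis, by -1.54 ± 0.38 (adjusted p = 0.00261) at 1 of its 2 probe sets, and AT1G69400 by -1.02 ± 0.36 (adjusted p = 0.0412). PRL, which encodes a subunit of the replicative helicase, differed by -0.99 ± 0.27 (adjusted p = 0.00622) and missed the size threshold.

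The gene that rose was SIM, whose protein favours rounds of replication without mitosis. SIM was at 1131 ± 182 in the section and 20.3 ± 14.4 in the tip at 8 dpg (SD, n = 3 each), a difference of 4.50 ± 0.58 (adjusted p = 4.29e-07). It was also lower in the tip at 4 dpg than in the 0 h stump, with a difference of -3.03 ± 0.50 (adjusted p = 0.000458), while none of the 6 genes was called there. Its signals at 0 h ran from 334 to 1806.

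In the stump 0 of the 17 probe sets passed from 0 to 5 h, against 2.63% of all probe sets, and 1 of 17 rose from 5 to 22 h, against 1.17%. That was AT2G28620, with 215 to 863 at 22 h and 28.8 to 165 at 5 h, a difference of 1.73 ± 0.34 (adjusted p = 0.00415). The same gene fell in the 5 h stump against the tip at 4 dpg, with a difference of -1.45 ± 0.36 (adjusted p = 0.0107). AUR3, by contrast with AUR2, had 211 to 357 at 22 h and 228 to 326 at 5 h, overlapping ranges, and was not called. Whether AUR3 and AUR2 differ in this step was not tested. Against the section 4 of the 17 probe sets were higher at 22 h, where 7.43% of all probe sets were, those of AT2G28620 at 2.34 ± 0.37 (adjusted p = 3.08e-05), AT5G05510 at 1.28 ± 0.26 (adjusted p = 0.000635), FU at 1.13 ± 0.34 (adjusted p = 0.0176) and AUR3 at 1.09 ± 0.24 (adjusted p = 0.00169).

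KEU, a gene for a membrane fusion regulator of cytokinesis and among the brighter listed genes, had 585 to 878 in the section and 435 to 676 in the tip at 8 dpg, and was not called. TSO1, HTR12, which encodes the centromeric histone, WYR, BUB3.2, HBT, CDC27a and ICU2 were not called in this comparison either. Of these, TSO1, HTR12, WYR and BUB3.2 had every section array below every tip array, as for 25.9% of probe sets. TSO1 had 252 to 342 in the section and 517 to 641 in the tip, and HTR12 70.9 to 126 and 177 to 269. WYR had 55.3 to 71.1 and 137 to 169, and BUB3.2 had 42 to 79.7 and 130.5 to 174. For CDC27a every section array, at 67.2 to 90.4, lay above every tip array, at 28.5 to 45.8. HBT and ICU2 overlapped. Most listed genes had no named probe set here, so these counts do not describe the division machinery as a whole.

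**Figure D4:**
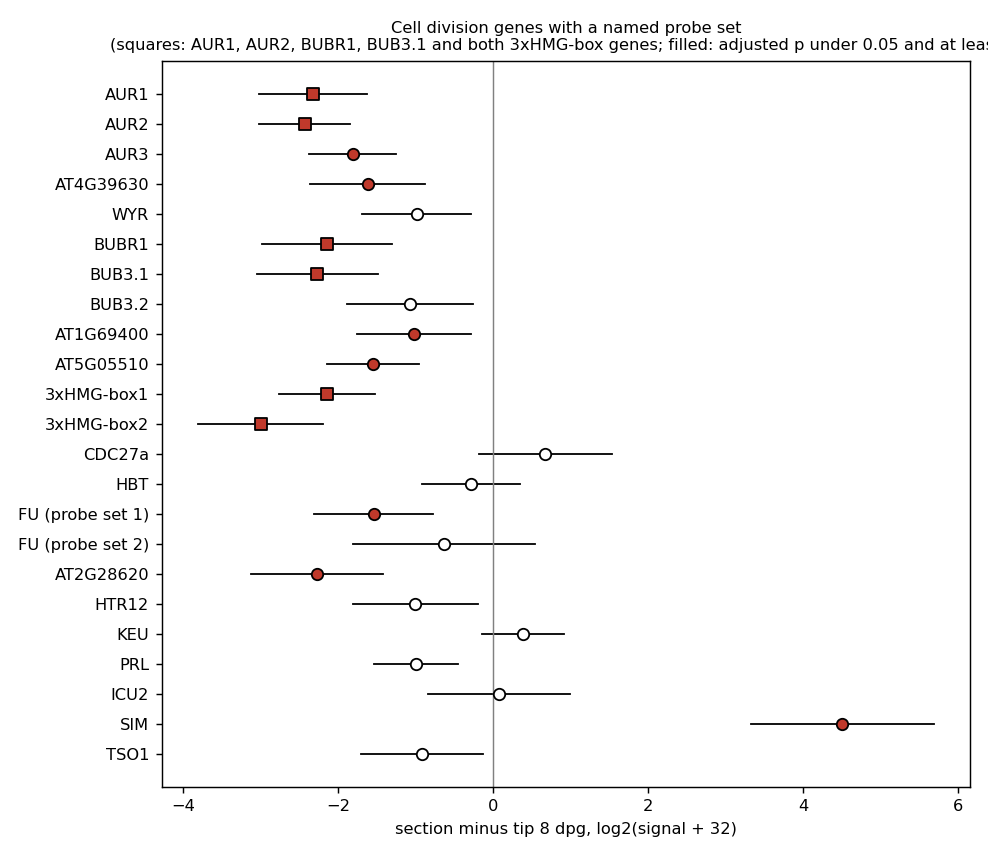
Section minus tip at 8 dpg on the log2(signal + 32) scale, with 95% intervals, for the cell division genes that have a named probe set. The squares, AUR1, AUR2, BUBR1, BUB3.1, 3xHMG-box1 and 3xHMG-box2, lie between -3.00 and -2.14, and the circles between -2.28 for AT2G28620 and 4.50 for SIM, filled where called.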

How the data were processed

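RNA of pooled root pieces, 50 ng per sample amplified in 2 cycles per the labels' protocols, was measured on 30 Affymetrix ATH1 arrays. The authors deposited 1 MAS5 signal intensity per probe set on a linear scale. MAS5 is named in the submitters' processing notes, and its version and scaling target are not given in the sources used here. Trimmed means were alike, so no further scaling was done. Scanner information files were not used, and arrays give no read depth, so their number limits precision.

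The deposited intensities were transformed as log2(signal + 32) and fitted with limma (version 3.58.1, R version 4.3.3), using lmFit and then eBayes with an intensity trend, 1 coefficient per group over 30 arrays, with Benjamini-Hochberg adjustment over 22746 probe sets. Thresholds were an adjusted p of 0.05 and a difference of 1. There were 15 comparisons and 1 interaction, and 6 of the comparisons share the 0 h stump arrays. Relatives were compared by exact permutation in scipy.

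Names came from the platform's probe table: 13513 probe sets had 1 gene, 503 had several and 8730 were not listed. Of the first, 13436 matched RefSeq loci (assembly TAIR10.1, names only). The genes and lists were chosen with earlier results of these data known. Named were the 6 genes, the 5 nearest patterns of each by r, and up to 4 called genes per list and comparison, with its brightest gene. FU and AT1G69400, and the listed genes that were not called, were added by name because the counts were small. Replicate numbers were not used to pair the arrays: of 53 same-numbered pairs 7 had deviations correlated above 0.1. Array 1 of the 0 h stump was at 0.628 with array 1 at 22 h and at 0.337 with tip 4 dpg array 1. Array 1 at 22 h and tip 4 dpg array 1 were at 0.308. All of these have medians above 120, and what they share was not tested. The alternatives were other pseudocounts, quantile normalization, median centring, a filter on dim probe sets, trend=FALSE, array weights, 2-group fits, a replicate block, leaving out each array and leaving out the 4 arrays of high median. The fit was tested on simulated data. A planned search of promoters was not run, as sequences were not used here.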

Additional observations from a re-analysis of the deposited data

Results flagged for a closer look

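Of 30 sets of 4 or 5 arrays, 1 for each of the 6 genes in each larger group, 2 held an array far from the rest by Dixon's criterion, and chance alone gives about 1 in 20. AUR1 was at 1183 on array 1 of the stump at 0 h, where its gap to the next array was 0.856 of the group's range and the critical value is 0.829. 3xHMG-box2 was at 2074 on array 1 of the stump at 22 h, with a gap of 0.758 of the range on the same scale and a critical value of 0.71. Both arrays are among the 4 with a median signal above 120.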

How the results depend on the processing

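With 3 to 5 arrays per group, differences of about 1 were near the limit of what could be called, and pieces of tissue were pooled. The calls of all 6 genes in the section against the tip at 8 dpg, and that of AUR2 from 5 to 22 h, held under all alternatives run. The number of the 6 genes called moved as follows, and where no value given shows the cause, it was not tested. From 0 to 5 h it was 1 with a pseudocount of 1 or with the p threshold alone, and 0 to 2 with 1 array left out. From 5 to 13 h it was 0 with a larger pseudocount, quantile normalization or median centring, and 0 to 1 with 1 array left out. From 5 to 22 h it was 1 with median centring or a fit of only these 2 groups, 3 with array weights, and 1 to 2 with 1 array left out. In the 5 h stump against the tip at 4 dpg it was 2 to 4, both with 1 array left out and over the other alternatives. In the 5 h stump against the section it was 1 with a larger pseudocount and 3 with a pseudocount of 1, with the p threshold alone or without 5 h array 2. In the 22 h stump against the section it was 4 to 6, again in both kinds of alternative. In the section against the 0 h stump it was 6 without the 4 arrays of high median, and 4 to 5 with 1 array left out. In the tip at 4 dpg against the 0 h stump it was 1 without the 40% dimmest probe sets, and 0 to 1 with 1 array left out, as from 0 to 13 h. In the stump labelled 8 dpg against the 0 h stump it was 1 without the 4 arrays of high median, 0 in a fit of only these 2 groups, 4 with median centring, and 2 to 3 with 1 array left out. Without those 4 arrays, differences turned to -0.532 and -0.45 for BUBR1 and BUB3.1 from 0 to 5 h, to -0.0361 for BUBR1 from 0 to 13 h and to -0.0823 for AUR2 minus AUR1 from 0 to 22 h. With 1 array left out, BUB3.1 from 0 to 5 h ran from -0.0792 to 0.678, AUR2 minus AUR1 from 0 to 5 h from -0.492 to 0.00884, and 3xHMG-box2 minus 3xHMG-box1 from 0 to 22 h from -0.067 to 0.658.

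The replicate block, tried although few same-numbered arrays were correlated, gave 1 called gene, BUBR1, in the tip at 4 dpg against the 0 h stump (adjusted p = 0.0457). It lost BUBR1 and BUB3.1 in the 22 h stump against the section (adjusted p = 0.12 and 0.0742) and AUR1 in the stump labelled 8 dpg against the 0 h stump (adjusted p = 0.0522). With it the 345 called probe sets from 5 to 22 h became 549, and the 780 in the 22 h stump against the tip at 4 dpg became 1062. The number fell only in the 5 h stump against the section, from 2689 to 2644. Same-numbered arrays had deviations correlated at -0.191 to 0.628.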

Other observations

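BBM had 118 to 182 in the stump at 5 h and 6.6 to 25.5 at 0 h. JKD, the other niche marker named here, had 10.6 to 90.1 at 5 h and 48.6 to 277 at 0 h. These JKD ranges overlap. AUR2 had a lower mean at 5 h than at 0 h but was not called changed. EXPA7, an expansin gene of root hairs, had 82.5 to 657 in the stump at 13 h and 9.9 to 49.6 at 5 h.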
